A study of Mus musculus with 19 samples.

Results

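The mitochondrial genome of the mouse encodes a small and fixed set of genes, which the deposited gene tables list under symbols that begin with *mt-*. All 37 of them were taken by that prefix: 13 protein genes, 2 rRNA genes and 22 tRNA genes, out of 55573 genes in the table of 7 tissues and 55487 genes in the table of brown adipose tissue (BAT). The third table of the series, for inguinal white adipose tissue (iWAT), lists 13756 genes and 0 of the 37, so mitochondrial transcripts were described in 13 of the 19 libraries. Single libraries, without biological replicates, were made from 7 tissues of chow-fed C57BL/6J wild-type (WT) mice: heart, brain, liver, small intestine, brown adipose, white adipose and the tibialis anterior (TA) muscle. BAT came from chow-fed male mice aged 5 months that were kept at 8 °C for 1 week, with 3 WT and 3 MCK-Musclin libraries. MCK-Musclin mice carry a transgene for Musclin, a peptide hormone secreted by muscle, under the muscle creatine kinase promoter; its founder lines, 5 in number, were crossed to C57BL/6J for 8 or more generations, and which line gave these samples is not stated. The series' design text calls the 3 libraries of a genotype biological replicates, and the study describes its RNA as coming from independent animals; whether these were littermates is not stated. RNA of white adipose was isolated with a commercial kit and that of the other 6 tissues and of BAT with TRIzol, so kit and tissue cannot be told apart for white adipose.

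Mitochondrial DNA is a compact circle. Both of its strands are transcribed into long precursors, in which tRNAs lie between most of the other genes and are cut out to release the mRNAs and rRNAs. The proteins it encodes are core subunits of respiratory complexes I, III and IV, which pump protons, and of complex V, the ATP synthase; complex II is encoded by the nucleus alone. Brown adipose tissue and heart are known for dense mitochondria, the first because the uncoupling protein Ucp1 turns the proton gradient into heat, the second because of its continuous demand for ATP.

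The gene order leaves almost no spacers. In the GENCODE M21 annotation of GRCm38, whose transcripts gave all sequences below, the last bases of *mt-Atp8* are also the first of *mt-Atp6*, over 43 bases, and *mt-Nd4l* runs 7 bases into *mt-Nd4*, so both pairs share one mRNA. These junctions are shown because fragments from the shared bases belong to both genes. The first line covers chrM:7912-7984 and the second chrM:10152-10188, both on the plus strand, with the shared bases in capitals.
mt-Atp8 into mt-Atp6: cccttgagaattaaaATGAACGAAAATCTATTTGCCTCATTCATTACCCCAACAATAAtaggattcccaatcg
mt-Nd4l into mt-Nd4: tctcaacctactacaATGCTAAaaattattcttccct

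The tRNA genes are as tightly packed. *mt-Tm*, for methionine, spans chrM:3845-3913 on the plus strand and ends 0 bases before *mt-Nd2*, whose first codon is in capitals in the second line (chrM:3899-3928). *mt-Ti*, for isoleucine, spans chrM:3706-3774 on the plus strand, shares its first 2 bases with *mt-Nd1* and its last 3 with *mt-Tq* on the opposite strand, and those bases are in capitals. They are shown because *mt-Tm* was the most abundant tRNA gene in every library and *mt-Ti* was the mitochondrial gene that passed the cutoff in BAT.
mt-Tm: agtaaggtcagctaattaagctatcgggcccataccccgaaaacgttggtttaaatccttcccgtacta
mt-Tm into mt-Nd2: atccttcccgtactaATAaatcctatcacc
mt-Ti: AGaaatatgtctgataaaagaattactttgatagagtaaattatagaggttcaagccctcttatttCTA

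Some mitochondrial reading frames end without a complete stop codon, which the poly(A) tail supplies. *mt-Co3*, *mt-Nd4* and *mt-Cytb* end in the annotation on a single T that begins the stop codon, whereas *mt-Nd1* ends on TAG and *mt-Co1* on TAA. The last 12 bases of 3 of these genes are given below, with the stop codon or its first base in capitals, from chrM:9379-9390, chrM:15277-15288 and chrM:6861-6872 on the plus strand. They are shown because every library was made from RNA selected for its poly(A) tail.
mt-Co3: gatgaggatctT
mt-Cytb: aattatatccaT
mt-Co1: aaagtaaaaTAA

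Mitochondrial transcripts took their largest shares of the summed FPKM in brown adipose and heart. Values are in FPKM as the authors calculated it, a fragment count scaled by gene length and by library size. Read counts are unknown, and the depth of the libraries relative to each other was estimated from the FPKM values. The estimate rests on only 12 to 28 genes per tissue library and 49 to 66 per BAT library. It lay between 0.917 and 1.05 of heart in the 7 tissues and between 0.892 and 1.11 of WT library 1 in BAT. The 37 genes took 53.8% of the summed FPKM in brown adipose, 53.6% in heart, 29.2% in TA muscle, 21.8% in brain, 19.0% in liver, 15.7% in small intestine and 13.3% in white adipose. Brown adipose and heart stood together at the top, with TA muscle next and well below them. With 1 library per tissue there is no replicate error for this order, and neighbours in it, such as brain and liver, cannot be told from the variation between mice. The number of *mt-* genes among the 10 most abundant genes was 9 in heart, brain and brown adipose, 8 in small intestine and 6 in TA muscle, liver and white adipose.

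**Figure D1:**
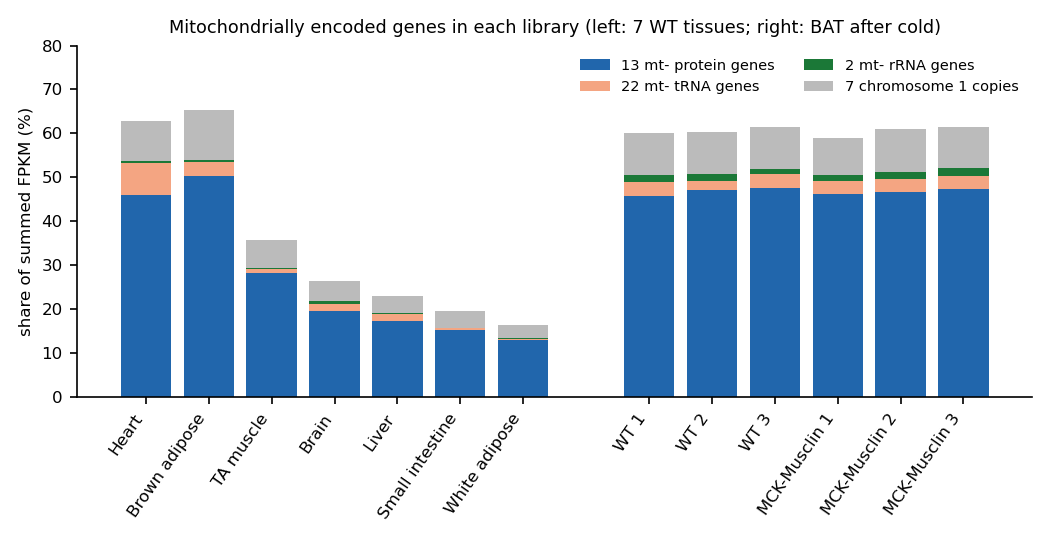
Share of the summed FPKM of each library (vertical axis, %) from the mt- protein, tRNA and rRNA genes and from the 7 near-identical copies on chromosome 1, for 7 WT tissues with 1 library each (left) and for 6 BAT libraries after cold (right). The mt- genes hold 53.8% in brown adipose and 13.3% in white adipose, and the 3 WT and 3 MCK-Musclin libraries of BAT lie together between 50.6% and 52.0%.

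The share depends on what is counted. The 13 protein genes alone took between 13% (white adipose) and 50.4% (brown adipose) of the summed FPKM. In heart the protein genes took 45.8% and the tRNA genes 7.40%, of which *mt-Tm* alone made up 84.9%, so that brown adipose led heart by protein genes. Because most *mt-* genes are short, their share of fragments, FPKM multiplied by exon length, was lower, at 24.8% in brown adipose, 22.1% in heart and 11.7% in TA muscle, and between 3.64% and 7.01% in the other 4 tissues. These shares depend on the exon lengths used, which came from GENCODE M21 and are not the authors' own.

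Each tissue label was checked against marker genes. The summed FPKM of the markers of heart, skeletal muscle, brain, liver, brown adipose and small intestine was in each case highest in the tissue of that name, and that of general adipocytes in white adipose. In the 7-tissue brown adipose library the 7 brown fat markers summed to 2878, and in the 6 BAT libraries to between 8437 and 10166. In bulk tissue fewer mitochondria-rich cells and less mitochondrial RNA per cell cannot be told apart.

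Among the protein genes the same tissues led throughout, while the order below them varied. Brown adipose and heart were the 2 highest tissues for 13 of 13 protein genes and TA muscle followed them for 13 of 13. Brown adipose was above heart for 10 of them. The 3 exceptions were *mt-Nd1*, *mt-Nd2* and *mt-Nd5*, all subunits of complex I, the NADH dehydrogenase that feeds electrons from NADH into the chain. White adipose was lowest for 10 genes, and small intestine for *mt-Nd2*, *mt-Nd5* and *mt-Nd6*. The highest tissue exceeded the lowest by 5.61-fold for *mt-Nd4* up to 10.03-fold for *mt-Nd3*, with a median of 7.31-fold over the 13 genes.

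Complex IV, cytochrome c oxidase, reduces oxygen, and its catalytic subunit is encoded by *mt-Co1*. The FPKM of *mt-Co1* was 66844 in brown adipose, 57163 in heart, 28607 in TA muscle, 18075 in liver, 16020 in small intestine, 14037 in brain and 10984 in white adipose. It was the most abundant *mt-* gene in 6 of the 7 tissues. The other subunits of complex IV were far lower: *mt-Co2*, which takes electrons from cytochrome c, lay between 884 (white adipose) and 7880 (brown adipose), and *mt-Co3* between 619 and 5380 in the same tissues.

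Complex III passes electrons from ubiquinol to cytochrome c, and *mt-Cytb* is the one mitochondrially encoded subunit. Its FPKM was 55763 in brown adipose, 50389 in heart, 27432 in TA muscle, 15375 in liver, 13204 in small intestine, 11997 in brain and 8061 in white adipose. The order of the tissues was that of *mt-Co1*, and *mt-Co1* was between 1.04 and 1.36 times as high as *mt-Cytb* in each of them.

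Complex V gave the highest value of any mitochondrial gene. *mt-Atp8*, a small membrane subunit, stood at 73720 in brown adipose, 40874 in heart, 25113 in TA muscle, 15638 in liver, 13740 in small intestine, 12778 in brain and 8471 in white adipose. *mt-Atp6*, which forms the proton channel and follows on the same mRNA, was at 32272 in brown adipose, 24219 in heart and between 4417 and 13184 in the other 5. Their ratio lay between 1.69 in heart and 2.28 in brown adipose although the pair shares a transcript. *mt-Atp8* is 204 bases long, of which 43 are shared, and how the authors' software divided fragments between the pair is not stated.

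Complex I has 7 mitochondrial subunits, which differed from each other far more than tissues did. *mt-Nd2* was the highest of them in liver and TA muscle, and *mt-Nd5* in heart. The FPKM of *mt-Nd2* was 28851 in heart, 26674 in brown adipose, 14549 in TA muscle, 10053 in liver, 6528 in brain, 4070 in white adipose and 4068 in small intestine. That of *mt-Nd3*, the lowest protein gene in every library, was 849 in brown adipose, 562 in heart, 428 in TA muscle, 139 in brain, 129 in small intestine, 110 in liver and 84.6 in white adipose. The highest protein gene exceeded *mt-Nd3* by between 66.8-fold in TA muscle and 165-fold in liver. Within the *mt-Nd4l* and *mt-Nd4* pair the upstream gene was at 45.8% (TA muscle) to 71.6% (brown adipose) of the downstream one.

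*mt-Nd6* is the one protein gene read from the opposite strand, so that its mRNA comes from the light-strand precursor. It was at 2911 FPKM in brown adipose, 2457 in heart, 1141 in TA muscle, 522 in liver, 474 in brain, 313 in white adipose and 307 in small intestine. That was 5.76% of the level of its neighbour *mt-Nd5* in white adipose and 13.6% in brown adipose. *mt-Nd5* and *mt-Nd6* overlap by 14 bases on opposite strands, and since reads were aligned without strand, RNA of both strands cannot be told apart at any of these genes.

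**Figure D2:**
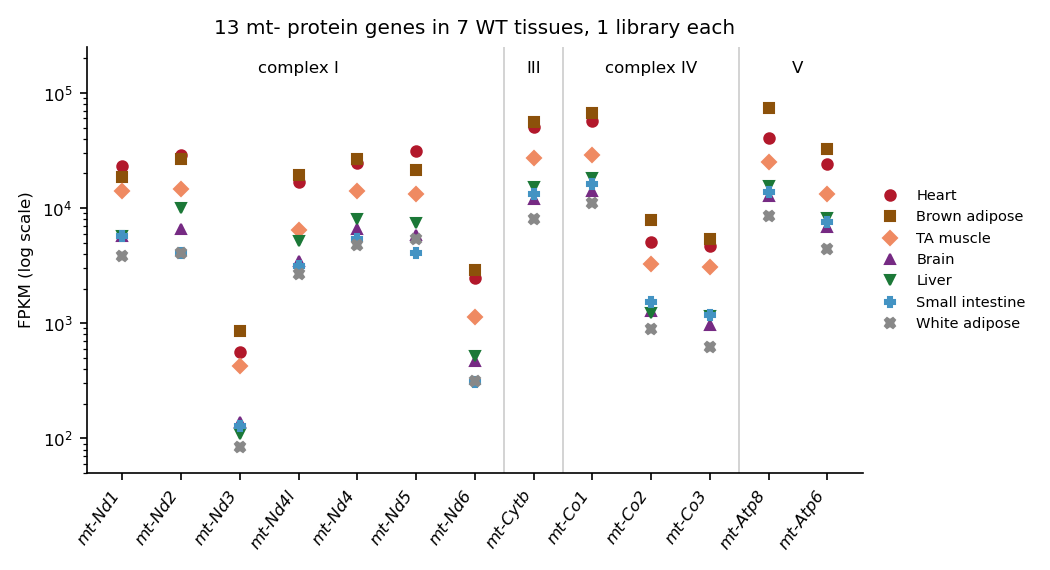
FPKM (vertical axis, log scale) of the 13 mt- protein genes, grouped by respiratory complex, in 7 WT tissues, with 1 point for each library. Brown adipose and heart are the 2 highest tissues for every gene and TA muscle follows, while mt-Nd3 is the lowest gene and mt-Co1 or mt-Atp8 the highest in each tissue.

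The mix of complexes shifted between tissues. Complex I subunits held 41.2% of the summed FPKM of the protein genes in heart and 30.03% in small intestine. Complex V subunits held 29.6% in brown adipose and 21% in heart. Complex IV stayed between 21.2% and 24.6%, and complex III between 14.8% and 17.3%.

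The rRNA genes, *mt-Rnr1* (12S) and *mt-Rnr2* (16S), encode the RNA of the mitochondrial ribosome. *mt-Rnr1* was at 1686 FPKM in brain, 1494 in brown adipose, 1339 in heart, 847 in TA muscle, 285 in small intestine, 276 in liver and 210 in white adipose. Brain led for this gene, and of the other members with a mean of at least 1 FPKM for *mt-Tp* alone. The ratio of *mt-Rnr1* to *mt-Nd1*, the next mRNA, was 0.293 in brain and between 0.0484 and 0.0802 in the other 6 tissues. A ratio as high as that of brain was not particular to it, since the 6 BAT libraries after cold had 0.254 to 0.302. *mt-Rnr2* was at 1285 in heart, 972 in brown adipose, 599 in brain, 331 in TA muscle, 125 in liver, 117 in small intestine and 66.2 in white adipose. Together they took between 0.0657% and 0.580% of the summed FPKM. The selection of poly(A) RNA in these libraries bears on the rRNA and tRNA values, since these RNAs carry short tails or none, and its part in the values was not tested.

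The tRNA genes spread over the widest range of all. *mt-Tm* was at 42495 FPKM in heart, 15173 in brown adipose, 7965 in liver, 5660 in brain, 3349 in TA muscle, 2068 in small intestine and 713 in white adipose. In heart it was above *mt-Nd2*, at 1.47 times its level, whereas in the other 6 tissues it was at 0.175 to 0.867 times. *mt-Tl1*, for leucine, between *mt-Rnr2* and *mt-Nd1*, reached 4218 in brown adipose and 3803 in heart and fell no lower than 191, in white adipose. *mt-Ti* reached 2921 in heart, 848 in brown adipose, 359 in brain, 304 in liver, 142 in TA muscle, 42.5 in small intestine and 15.5 in white adipose, so heart was 189-fold above white adipose.

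Of the 22 tRNA genes 14 are read from the same strand as most mRNAs and 8 from the other. The mean over the 7 tissues had a median of 44.0 FPKM among the 14 and of 2.41 among the 8. The highest of the 8, *mt-Te* for glutamate, which is directly beside *mt-Nd6*, had a mean of 105. At the other end, *mt-Ts2*, one of the serine tRNAs and at 59 bases the shortest gene of the set, was below 0.1 in every library. There were 8 tRNA genes listed at 0 in at least 1 tissue, 5 of them from the light strand, and an exact 0 may be a value that could not be estimated. tRNA genes are shorter than a typical sequenced fragment, and how the authors' software treats such lengths is not stated.

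**Figure D3:**
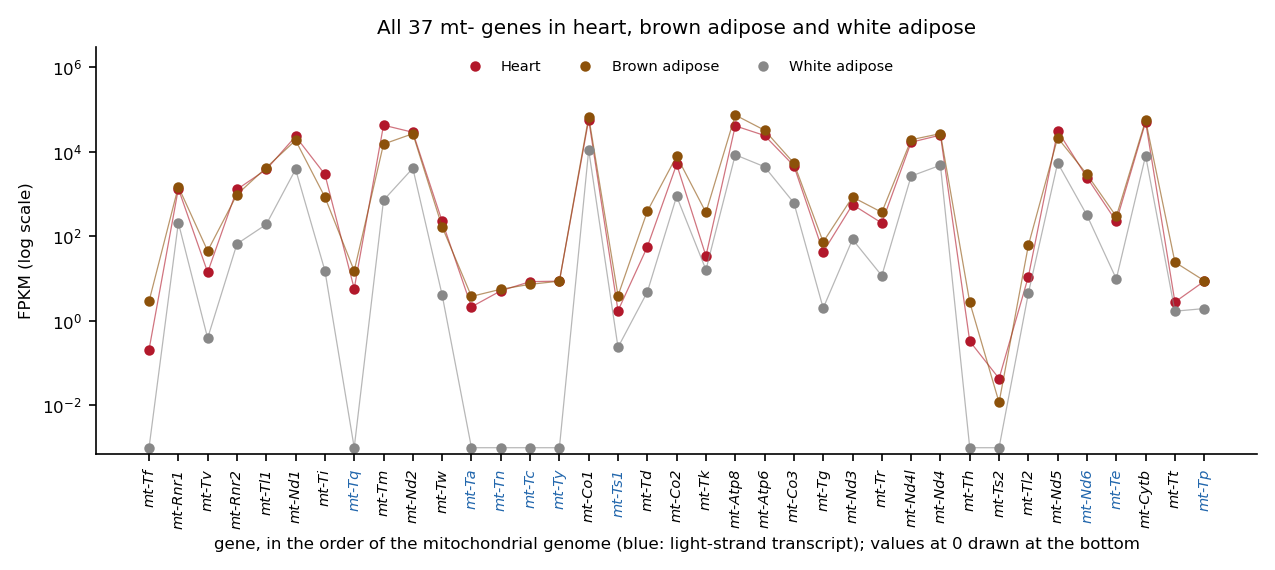
FPKM (vertical axis, log scale) of all 37 mt- genes in the order of the mitochondrial genome, in heart, brown adipose and white adipose, with 1 library each; thin lines join neighbours only to guide the eye, and blue names mark light-strand transcripts. The rRNA and protein genes lie above most tRNA genes, mt-Tm in heart stands at 42495, and mt-Ts2 is lowest in heart and brown adipose; white adipose values of 0 are drawn at the bottom edge.

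Brown adipose and heart led for most members. Among the 33 *mt-* genes that averaged 1 FPKM or more over the tissues, 22 were highest in brown adipose, where 5.66% of the 14692 genes at that level were, and 9 in heart, where 3.51% were. The other 2 were highest in brain. FPKM is a share of the library, so the abundant members of these 2 tissues also lower all other genes there, and the counts are a description with no test.

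Several *mt-* genes have near-identical copies in the nuclear genome. A search of all annotated transcripts found 11 copies with at least 95% identity over at least 100 bases, and 7 of them lie side by side on the minus strand of chromosome 1, at 24611535 to 24616197 of GRCm38, over 4663 bases, where the annotation lists unprocessed pseudogenes. They follow the order of *mt-Co1*, *mt-Co2*, *mt-Atp6*, *mt-Co3*, *mt-Nd3*, *mt-Nd4l* and *mt-Nd4*, as in a stretch of mitochondrial DNA. Of the 7, 5 are identical to the mitochondrial gene over their whole length. The remaining 2 differ by 1 base each, *Gm28438* from *mt-Nd3* by T3C and *Gm29216* from *mt-Co1* by A1066T within the 483 of its 492 bases that align, counted from the first base of the *mt-* gene, with the mitochondrial base first. The windows below cover chrM:9459-9488 (plus strand) beside chr1:24613090-24613119 (minus strand), and chrM:6390-6419 (plus strand) beside chr1:24616159-24616188 (minus strand), with the differing base in capitals.
mt-Nd3: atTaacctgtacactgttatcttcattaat
Gm28438: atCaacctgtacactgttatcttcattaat
mt-Co1: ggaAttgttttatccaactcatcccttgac
Gm29216: ggaTttgttttatccaactcatcccttgac

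A fragment from an identical stretch can be assigned to either place, so the values of these 7 protein genes are uncertain. The copy of *mt-Atp6*, *Gm10925*, had an FPKM of 31722 in brown adipose, 24745 in heart, 13805 in TA muscle, 8701 in liver, 8058 in small intestine, 7249 in brain and 4693 in white adipose, between 98.3% and 106% of *mt-Atp6*. *Gm28661* (*mt-Co2*) and *Gm28437* (*mt-Co3*) lay between 94.1% and 100% of their *mt-* genes in the 7 tissues. *Gm28438*, with its 1 differing base, still lay between 77.3% and 87.0% of *mt-Nd3*. The partial copies of *mt-Nd4* and *mt-Co1* were at 35.7% to 44.2% and 12.8% to 20.1%. By contrast, the 4 copies on chromosomes 2 and 13, with 95.2% to 97.6% identity, were at no more than 0.405% of their genes in the tissues.

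**Figure D4:**
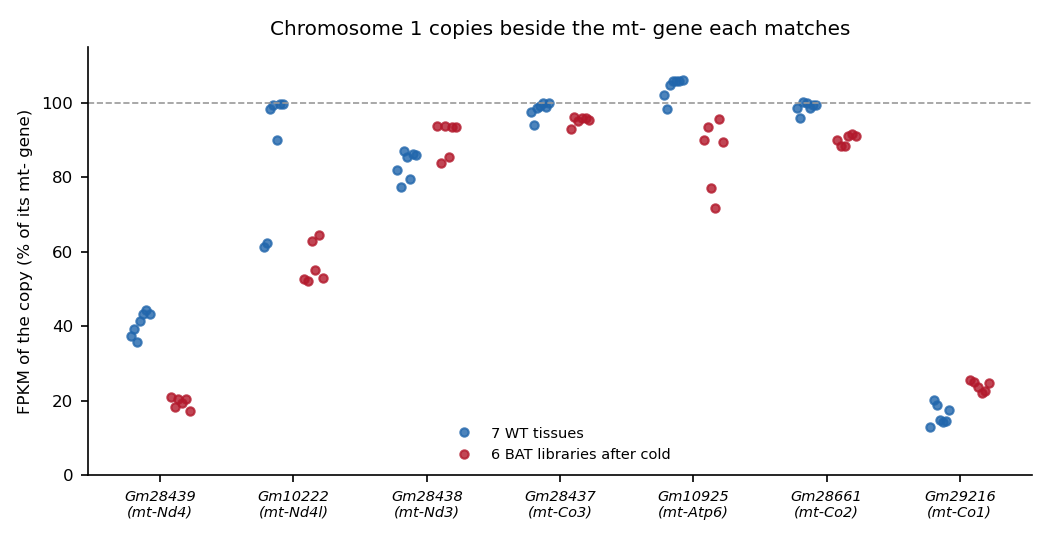
FPKM of each chromosome 1 copy as a percentage of the FPKM of its mt- gene (vertical axis), with 1 point for each of 7 WT tissues (blue) and 6 BAT libraries after cold (red). The copies of mt-Co2, mt-Co3 and mt-Atp6 lie near the dashed line at 100% in the tissues, and the partial copies of mt-Nd4 and mt-Co1 lie between 12.8% and 44.2%.

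The 7 copies took a further 11.4% of the summed FPKM in brown adipose, 9.10% in heart and as little as 3.07% in white adipose. Counted with the *mt-* genes they brought the share to 65.2% in brown adipose, 62.7% in heart and 16.4% in white adipose. The tissue order of the share was the same with and without them. The protein genes with a copy in the block had a median FPKM of 8114 over the tissues and the 6 without one of 13093, as a description of which genes share fragments. The 3 lowest protein genes of the heavy strand, *mt-Nd3*, *mt-Co3* and *mt-Co2*, each have a copy that is at least 99.7% identical over nearly the whole gene. So do *mt-Atp6* and *mt-Nd4l*, which were far higher, at 32272 and 19233 FPKM in brown adipose. The part of the copies in the level of any of these genes was not tested.

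In BAT after cold the mitochondrial share did not separate the genotypes. The question of the comparison was whether the Musclin transgene alters gene expression in brown fat. *Ostn*, which encodes Musclin, was at 37.9, 31.6 and 30.3 FPKM in the MCK-Musclin libraries and is listed at 0 in the 3 WT libraries. Its RNA was thus in the BAT samples themselves, and whether it came from brown fat or from muscle in the samples was not tested. The 37 *mt-* genes took 50.6%, 50.7% and 52.0% of the summed FPKM in the WT libraries and 50.6%, 51.1% and 52.0% in the MCK-Musclin libraries. The means were 51.1% ± 0.791 (SD, n = 3) in WT and 51.2% ± 0.707 (SD, n = 3) in MCK-Musclin, and the libraries of the 2 genotypes covered the same range. The share from protein genes was 46.8% ± 0.884 in WT and 46.8% ± 0.551 in MCK-Musclin, from rRNA genes 1.45% ± 0.126 and 1.57% ± 0.112, and from tRNA genes 2.83% ± 0.513 and 2.89% ± 0.0782 (SD, n = 3 each). Within the protein genes, complex I held 37.1% ± 0.987 in WT and 39.3% ± 2.64 in MCK-Musclin, complex III 16.2% ± 1.69 and 16.3% ± 0.497, complex IV 15.4% ± 0.138 and 15.1% ± 0.486, and complex V 31.2% ± 1.48 and 29.2% ± 3.52 (SD, n = 3 each). MCK-Musclin library 1 stood apart for complexes V and I: complex V was at 25.2% in it against 29.7% to 32.7% in the other 5, and complex I at 42.3% against 36.5% to 38.6%. With the copies of chromosome 1 included, the share of the library was 60.7% ± 0.686 and 60.4% ± 1.31.

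Gene by gene, 1 of the 37 passed the study's cutoff for BAT (a log2 fold change larger than 0.3 in size and an unadjusted p below 0.05), here by limma on log2(FPKM + 1). Over the 10893 genes tested, which averaged 1 FPKM or more, 1.85% passed it as higher and 2.15% as lower in MCK-Musclin. The filter kept 34 members: 13 protein genes, 2 rRNA genes and 19 tRNA genes. *mt-Ta*, *mt-Ts1* and *mt-Ts2* fell below it, with no library above 1.38 FPKM. With Benjamini-Hochberg adjusted p-values, 0 of the 34 passed 0.05 and 0.00918% of all genes did, which is *Ostn* alone. At an unadjusted p under 0.05 there were 2 of the 34, near the 4.89% of all genes.

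*mt-Ti* was the member at the cutoff. Its FPKM was 505, 462 and 449 in the WT libraries and 647, 555 and 611 in the MCK-Musclin libraries. The lowest MCK-Musclin library exceeded the highest WT library, with means of 472 ± 29.5 and 604 ± 46.7 (SD, n = 3 each). The log2 fold change was 0.35 (SE 0.0890, 95% interval 0.15 to 0.56), with an unadjusted p of 0.00463 and a Benjamini-Hochberg adjusted p of 0.929 in limma. Its neighbours did not pass: *mt-Nd1* had a log2 fold change of 0.07 (SE 0.0707) and *mt-Tm* of 0.01 (SE 0.146).

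The protein genes differed little between genotypes. Their log2 fold changes lay between -0.19 and 0.14 with standard errors of 0.0676 to 0.160, 4 above and 9 below 0, and their median was -0.05, beside -0.01 over all genes tested. None of the 13 reached the fold of 0.3. The 95% intervals excluded a log2 change beyond 0.3 in either direction for genes such as *mt-Co1* (-0.21 to 0.12) and *mt-Nd1* (-0.09 to 0.24). They did not for *mt-Atp8* (-0.54 to 0.21), *mt-Nd2* (-0.07 to 0.34), *mt-Nd3* (-0.37 to -0.0036) and *mt-Nd6* (-0.35 to 0.07).

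In complex IV the FPKM of *mt-Co1* was 38314, 39280 and 40693 in WT and 37437, 38293 and 38844 in MCK-Musclin libraries. The genotypes overlapped, and the log2 fold change was -0.05 (SE 0.0692). *mt-Co2* was at 8139, 8237 and 8325 in WT and 7984, 7601 and 7494 in MCK-Musclin libraries, and all of the latter were lower. Its log2 fold change was -0.10 (SE 0.0676), with an adjusted p of 0.968 in limma.

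In complex III *mt-Cytb* was at 49559, 51263 and 62237 FPKM in WT and 52894, 53383 and 54521 in MCK-Musclin libraries. The WT libraries enclosed the MCK-Musclin libraries, and the log2 fold change was -0.01 (SE 0.1003). WT library 3 was the highest of the 6 for this gene. In it and in MCK-Musclin library 1 *mt-Cytb* was the most abundant *mt-* gene, and in the other 4 libraries *mt-Atp8* was.

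In complex V *mt-Atp8* was at 63128, 70419 and 59884 FPKM in WT and 44374, 65744 and 65270 in MCK-Musclin libraries. The genotypes overlapped and MCK-Musclin library 1 stood far below the others. The log2 fold change was -0.16 (SE 0.160) with that library and 0.03 without it. The same library was also lowest for *mt-Atp6*, at 34466 against 38506 to 41895 in the others, and for its copy *Gm10925*, at 24738 against 32289 to 37429. Its estimated depth was 0.892 of WT library 1, the lowest of the 6, and the part of depth in these values was not tested.

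In complex I *mt-Nd2* was at 34214, 29329 and 29994 FPKM in WT and 35441, 32009 and 35146 in MCK-Musclin libraries, with a log2 fold change of 0.14 (SE 0.0897) and overlapping genotypes. *mt-Nd3* was at 1757, 1710 and 1789 in WT and 1419, 1577 and 1627 in MCK-Musclin libraries. Here the highest MCK-Musclin library was below the lowest WT library. The log2 fold change of *mt-Nd3* was -0.19 (SE 0.0786), with an unadjusted p of 0.0466 and an adjusted p of 0.968 in limma, and it is under the fold that the cutoff asks for. Its copy *Gm28438* had -0.18 (SE 0.112). *mt-Nd6*, from the light strand, was at 3536, 3162 and 2964 in WT and 3127, 2846 and 2787 in MCK-Musclin libraries, which overlap, with a log2 fold change of -0.14 (SE 0.0917).

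The rRNA genes were somewhat higher on average in MCK-Musclin BAT, within the spread. *mt-Rnr1* was at 9038, 8089 and 7429 FPKM in WT and 7978, 8387 and 9619 in MCK-Musclin libraries, and its log2 fold change was 0.08 (SE 0.106). *mt-Rnr2* had a log2 fold change of 0.10 (SE 0.0860), and the genotypes overlapped for both.

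Among tRNA genes the errors were larger. *mt-Tm* was at 19170, 13717 and 19881 FPKM in WT and 16232, 18082 and 18181 in MCK-Musclin libraries, so that the genotypes overlapped, with a log2 fold change of 0.01 (SE 0.146). The lowest estimate was that of *mt-Tq*, for glutamine, at -1.10 (SE 0.546), from 48.1, 103 and 65.0 in WT and 80.8, 17.9 and 21.2 in MCK-Musclin libraries. These overlapped, and its 95% interval ran from -2.37 to 0.18. Standard errors of the 19 tRNA genes tested ranged from 0.0890 to 0.546, so a change of the size seen for *mt-Ti* was not detectable for most of them.

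**Figure D5:**
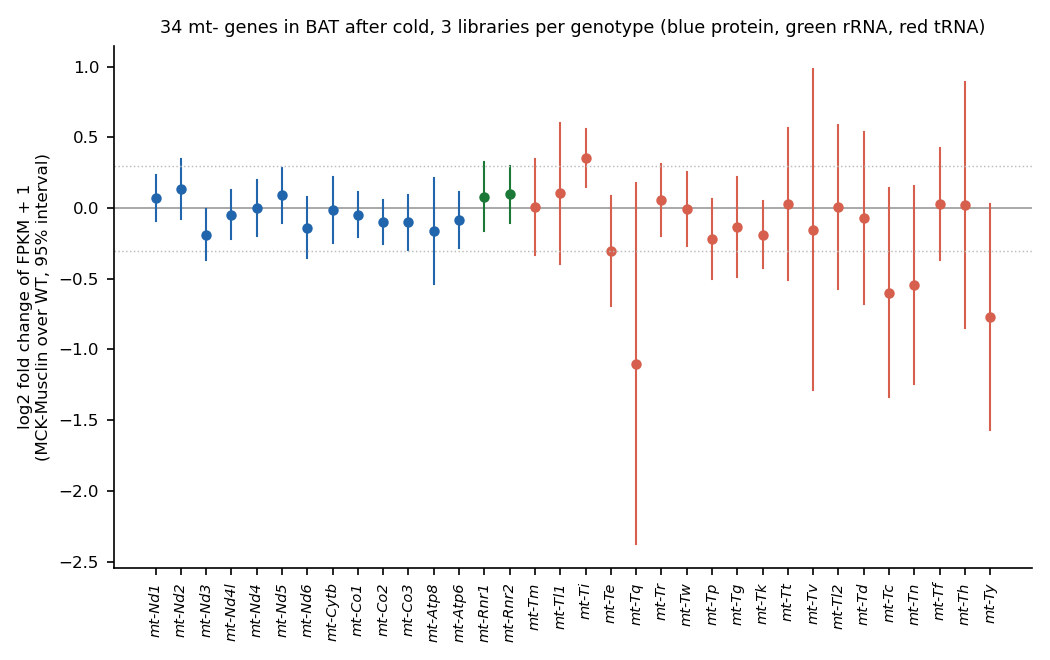
Log2 fold change of FPKM + 1 between MCK-Musclin and WT BAT (vertical axis; points with 95% intervals from limma, 3 libraries per genotype) for the 34 mt- genes tested, with protein genes by complex, then rRNA genes, then tRNA genes from the most to the least abundant; dotted lines mark 0.3 in either direction. mt-Ti at 0.35 is the one point beyond the line whose interval leaves out 0, and the protein genes lie between -0.19 and 0.14.

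Counted by overlap alone, 1 of the 34 members tested had all 3 MCK-Musclin libraries above the 3 WT libraries, against 4.38% of all genes, and 4 had all 3 below, against 5.63%. The first is *mt-Ti*, and the 4 are *mt-Co2*, *mt-Nd3*, *mt-Tk* and *mt-Tp*. The members share one genome, overlapping precursors and the scaling of each library, so they are not independent of each other. Markers of other cells differed between the same libraries: the 8 skeletal muscle markers summed to between 295 and 469 FPKM in WT and between 484 and 1123 in MCK-Musclin BAT, and the 3 erythrocyte markers to between 1058 and 1368 and between 1564 and 1674. None of these 11 markers was at 0 in any of the 6 libraries, and their part in the values of the *mt-* genes was not tested.

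Mitochondrial RNA is made by a dedicated polymerase, Polrmt, with the factors Tfam and Tfb2m, and processed by nuclear-encoded proteins. Of 43 such genes, for transcription, RNA processing, mtDNA maintenance and nuclear control, 6 were highest in heart and 6 in brown adipose, beside the 3.51% and 5.66% of all genes given above. In small intestine 12 were highest and in white adipose 10, where 27.9% and 21.3% of the 14692 genes were. The counts of small intestine and white adipose were thus near the background. Those of heart and brown adipose were above it, as a description with no test. *Polrmt* lay between 3.96 FPKM in liver and 8.09 in small intestine, and *Tfam*, which packages mtDNA, between 8.63 in TA muscle and 14.9 in small intestine. *Lrpprc*, which stabilises mitochondrial mRNAs, was highest in heart (33.1), then liver (29.2) and brown adipose (27.6), and lowest in white adipose (10.7).

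In cold BAT 41 of the 43 were tested, and 1 was higher and 1 lower in MCK-Musclin at the cutoff, near the shares over all genes given above. *Ssbp1*, the single-stranded DNA-binding protein of mtDNA replication, was at 39.3, 39.7 and 41.2 FPKM in WT and 49.1, 51.6 and 50.4 in MCK-Musclin libraries. All MCK-Musclin libraries were above all WT libraries, with a log2 fold change of 0.32 (SE 0.0780), an unadjusted p of 0.00385 and an adjusted p of 0.929 in limma. *Mterf2*, a member of the mitochondrial termination factor family, was at 10.4, 5.60 and 6.89 in WT and 5.24, 3.73 and 5.51 in MCK-Musclin libraries. Its log2 fold change was -0.54 (SE 0.222), with an unadjusted p of 0.0418 and an adjusted p of 0.968 in limma. The call of *Mterf2* was lost with no filter on low values and when either WT library 1 or 3, or either MCK-Musclin library 1 or 2, was left out. *Tfam* had 0.13 (SE 0.0908), *Polrmt* -0.05 (SE 0.111) and *Lrpprc* 0.01 (SE 0.0915), and the median over the list was 0.01. By overlap, 4 of the 41 had all MCK-Musclin libraries above all WT libraries, against 4.38% of all genes, and 3 had all below, against 5.63%. The 4 were *Ssbp1*, *Tfam*, *Polg* and *Rnaseh1*, and the 3 were *Mterf2*, *Ptcd1* and *Tbrg4*.

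Nuclear genes supply the remaining subunits of the same complexes, and 73 of them were set beside the 13. The summed FPKM of the mitochondrial subunits was 14.2 times that of the nuclear ones in heart, 13.7 in brown adipose, 12.3 in liver, 11.1 in brain, 9.69 in TA muscle, 6.52 in white adipose and 5.93 in small intestine. As a ratio of medians brown adipose stood lower in this order, at 100.4 beside 130 in liver, 119 in brain and 111 in TA muscle. In brown adipose the nuclear subunits took 3.69% of the summed FPKM, the largest of the 7 shares, beside 50.4% for the mitochondrial ones. In cold BAT the ratio was 9.92 ± 0.320 in WT and 10.3 ± 0.354 in MCK-Musclin (SD, n = 3 each), with libraries between 9.72 and 10.3 and between 9.93 and 10.6.

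Of the 71 nuclear subunits tested in BAT, 1 was higher and 3 were lower in MCK-Musclin at the cutoff, beside 1.85% and 2.15% of all genes. The count of lower genes depended on the library: it was 1 without MCK-Musclin library 1, 9 without library 2 and 6 without library 3, and the count of higher genes was 0 without WT library 1. Those lower were *Atp5k*, of the ATP synthase, at -0.58 (SE 0.117), and *Cox5b* and *Cox8b*, of complex IV, at -0.36 (SE 0.0982) and -0.35 (SE 0.113), and for each of the 3 all MCK-Musclin libraries were below all WT libraries. The one higher was *Cox6a2*, the heart and muscle isoform of a complex IV subunit, at 0.997 (SE 0.333), from 10.3, 16.85 and 7.71 FPKM in WT and 36.1, 16.86 and 20.01 in MCK-Musclin libraries. MCK-Musclin library 1 was highest for it and also for the skeletal muscle markers, whose sums (295 to 469 in WT, 484 to 1123 in MCK-Musclin) did not overlap either, and their part in this value was not tested. In all, 57 of the 71 had a log2 fold change below 0, 80.3% against 52.3% of all genes tested, and their median was -0.08. Without MCK-Musclin library 1 it was 40 of 71, 56.3% against 54.4% of all genes, with a median of -0.01, so the excess of values below 0 rested on that library. Genes with all MCK-Musclin libraries below all WT libraries numbered 13 of 71 with it, beside 5.63% of all genes, and 14 of 71 without it, beside 11.1%. Of the mitochondrial protein genes, 9 of 13 had a log2 fold change below 0 with that library and 9 of 13 without it. That is 69.2% each time, beside 52.3% and 54.4% of all genes. Those with all MCK-Musclin libraries below all WT libraries numbered 2 of 13 with it and 3 of 13 without it.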

How the data were processed

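RNA was selected with oligo(dT) beads, fragmented and reverse-transcribed with random primers. Per the paper's methods, the authors removed reads with fastp and bowtie2, used HISAT2 in unstranded mode against mm10 (GRCm38), and deposited per-gene FPKM from StringTie; the submitters' processing notes also name Cuffdiff, and what bowtie2 removed is not stated. For iWAT the authors also deposited fold changes and p-values of their own comparison, which were not used. Repeat lines of a gene (287 in each of 2 tables, with identical values) were used once.

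Members and gene lists were chosen with earlier results of these data known. In BAT, limma 3.58.1 in R 4.3.3 (lmFit, then eBayes with trend on) was applied to log2(FPKM + 1) of the 10893 genes that averaged 1 FPKM or more, and p-values were adjusted over all of them by Benjamini-Hochberg; on this scale changes of low genes are understated. The step was tested on simulated data. Full statistics were given for members at the cutoff, the most abundant member of each complex or class and *mt-Nd6*; *mt-Nd3*, *mt-Co2*, *mt-Atp6*, *mt-Nd1* and *mt-Tq* were added after their values were seen. Positions, exon lengths and sequences came from GENCODE M21 (GRCm38), and copies were found with blastn 2.17.0 among its transcripts. Tables were read with Python 3.11.15 and pandas 2.3.3. Alternatives changed the pseudocount, filter, scaling, trend, replicate block, copies and libraries included. The 3 tables were normalised separately, so no test crossed them.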

Additional observations from a re-analysis of the deposited data

How the results depend on the processing

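The number of *mt-* genes at the cutoff in BAT was 1 with every other pseudocount, filter, scaling or model for which it was counted. It was not counted with values centred on the protein genes or with the copies added to their *mt-* genes. The number lay between 1 and 4 when each library was left out, and the genes included *mt-Ti* in every fit counted. It was 4 without WT library 3, with *mt-Tn*, *mt-Tc* and *mt-Ty* lower, 3 without MCK-Musclin library 3, with *mt-Ty* and *mt-Te* lower, 2 without MCK-Musclin library 1, with *mt-Tq* lower, and 2 without WT library 1, with *mt-Tl1* higher. The counts over all 10893 genes in these fits were 430, 536, 410 and 434, in the same order, beside 34 members tested. *mt-Ti* was between 0.30 and 0.42 (log2 fold change) without each library. The median log2 fold change of the protein genes lay between -0.08 and -0.02 without each library, and the genotype difference of the share between -0.24 and 0.60 percentage points. The count over all genes was 216 with a mean FPKM of at least 5, against 436, and between 410 and 575 without each library. For the transcription list it was 1 with no filter, against 2, and between 1 and 4 without each library.

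In heart, TA muscle, brain, liver and brown adipose the share was 45.8%, 28.2%, 19.5%, 17.3% and 50.4% from protein genes. As a share of fragments it was 22.1%, 11.7%, 5.11%, 7.01%, 24.8%, 3.64% and 4.93% in heart, TA muscle, brain, liver, brown adipose, white adipose and small intestine, so liver passed brain. With the copies, an alternative chosen after seeing the data, it was 62.7%, 35.6%, 26.3%, 22.9%, 65.2%, 16.4% and 19.4% in the same order. As a ratio of median FPKM, mitochondrial over nuclear subunits gave 166, 111, 119, 130, 100.4, 63.2 and 46.2 in that order, by construction higher than the ratio of sums. The order of the tissues changed with it: brown adipose fell below liver, brain and TA muscle, whereas by sums only heart was above it.

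The replicate numbers do not pair the libraries (correlations of -0.0951, -0.00464 and 0.00937 between same-numbered libraries); with a replicate block the number of *mt-* genes at the cutoff was 1 and of all genes 460. Of 160 values of 10 *mt-* genes under alternatives, 8 changed sign, all of *mt-Cytb*, *mt-Tm* or *mt-Atp8*, and none changed its side of the cutoff. The 10 were a chosen set: *mt-Ti*, *mt-Nd2*, *mt-Nd3*, *mt-Nd6*, *mt-Cytb*, *mt-Co1*, *mt-Co2*, *mt-Atp8*, *mt-Rnr1* and *mt-Tm*. They leave out *mt-Tn*, *mt-Tc*, *mt-Ty*, *mt-Te*, *mt-Tq* and *mt-Tl1*, which entered the cutoff when a library was left out. Read counts were not used, so counting error is unknown.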

Other observations

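The brown adipose library of the 7 tissues and the 6 BAT libraries after cold can be set side by side for the members, with the limits that their tables were normalised separately, that the first is 1 library, and that cold, age and batch cannot be told apart between them. The mitochondrial share was similar, at 53.8% beside 50.6% to 52.0%, but its make-up was not. *mt-Rnr1* was at 1494 FPKM in the first and at 7429 to 9619 in the 6 cold libraries, and *mt-Rnr2* at 972 beside 2138 to 2624. *mt-Co1* was at 66844 beside 37437 to 40693 and *mt-Nd4l* at 19233 beside 9427 to 10551, whereas *mt-Nd1* was at 18626 beside 28480 to 31810 and *mt-Nd3* at 849 beside 1419 to 1789. Among tRNA genes *mt-Td* was at 391 beside 3.61 to 7.93 and *mt-Tk* at 366 beside 13.8 to 18.5. *mt-Tp* was lower, at 8.90 beside 19.7 to 28.8, and *mt-Tm*, at 15173, lay within the cold range of 13717 to 19881. How many of all genes lie outside the range of the 6 cold libraries was not counted. In the same comparison *Gm28439* stood at 10569 beside 5419 to 6537 while *mt-Nd4*, which it copies, was at 26851 beside 27601 to 32074.

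The FPKM assigned to the chromosome 1 block varied between genes of equal identity. *Gm10925* and *Gm10222* are both identical to their *mt-* gene over nearly its whole length, and in the 6 cold BAT libraries the first was at 71.8% to 95.5% of *mt-Atp6* and the second at 52.2% to 64.5% of *mt-Nd4l*. In the 7 tissues *Gm10222* was at 61.2% to 99.8%, lowest in heart, and *Gm10925* at 98.3% to 106% of *mt-Atp6*. Whether any of this signal is transcribed from chromosome 1 was not tested.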
